A study of Rattus norvegicus with 4 samples.

Results

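Liver sinusoidal endothelial cells (LSECs) line the capillaries of the liver and, with their open pores and scavenger receptors, filter the blood that reaches the hepatocytes. Their microRNAs (miRNAs) are described here from the 2 arrays labelled as untreated primary LSECs, out of 4 arrays in all; the other 2 held untreated primary hepatocytes. Every sample came from Sprague-Dawley rats aged 10 weeks, which the series title gives as male, with no genetic change or agent in either group. RNA was labelled with Cy5 and hybridised to a single-colour array, and every probe whose name starts with rno- (rat) was taken on each array: 685 that matched a RefSeq miRNA by name and 76 that did not. The labels give neither the purity of the isolated cells nor whether the 2 LSEC samples came from separate animals, so SDs below (n = 2) may be partly technical.

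A miRNA is a short RNA, cut from one or both arms of a hairpin precursor, that guides Argonaute proteins to messenger RNAs and represses them. Pairing is led by the seed, bases 2 to 8, so miRNAs that share a seed can share targets. In endothelium, miR-126 has a well-known role: its hairpin sits in an intron of Egfl7, a gene of endothelial cells, and it sustains signalling from vascular endothelial growth factor by repressing Spred1 and Pik3r2.

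Below, signal means the median brightness of a spot in the Cy5 channel minus the mean of the blank spots of its array, in intensity units. Share means a probe's percent of the signal summed over these probes. A spot's brightness depends on its probe as well as on the amount of RNA, and each miRNA had 1 spot. Ranks and shares therefore order spots by brightness and do not count molecules.

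The mature sequences of the miRNAs that carry most of the LSEC signal, or that mark a cell type, are shown from RefSeq (build GRCr8), 5′ to 3′, with the seed in capitals. The endothelial pair and the markers described below come first.
rno-miR-126a-3p: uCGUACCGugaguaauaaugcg
rno-miR-126a-5p: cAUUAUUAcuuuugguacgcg
rno-miR-511-3p: aAUGUGUAgcaaaagacagga
rno-miR-10a-5p: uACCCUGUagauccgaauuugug
rno-miR-146a-5p: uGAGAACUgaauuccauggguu
rno-miR-146b-5p: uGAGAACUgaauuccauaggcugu
rno-miR-122-5p: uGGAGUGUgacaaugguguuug

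The second set holds bright miRNAs, with those that share a seed placed together. miR-16-5p, miR-21-5p, miR-24-3p and miR-26a-5p are shown without a partner.
rno-let-7a-5p: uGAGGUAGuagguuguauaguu
rno-let-7f-5p: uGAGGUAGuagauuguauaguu
rno-let-7c-5p: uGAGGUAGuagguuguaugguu
rno-let-7d-5p: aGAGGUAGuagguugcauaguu
rno-miR-23a-3p: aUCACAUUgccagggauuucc
rno-miR-23b-3p: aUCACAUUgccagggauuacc
rno-miR-27a-3p: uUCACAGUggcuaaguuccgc
rno-miR-27b-3p: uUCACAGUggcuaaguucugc
rno-miR-29a-3p: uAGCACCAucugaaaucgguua
rno-miR-29b-3p: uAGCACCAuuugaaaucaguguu
rno-miR-16-5p: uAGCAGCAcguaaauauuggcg
rno-miR-21-5p: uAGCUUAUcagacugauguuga
rno-miR-24-3p: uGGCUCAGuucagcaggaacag
rno-miR-26a-5p: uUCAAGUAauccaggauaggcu
In the table used, miR-126a-3p lies on the + strand of GRCr8 at chr3:29813219-29813240, within Egfl7. The hairpin of miR-511 lies at chr17:82187953-82188031 on the + strand within Mrc1, the gene of the mannose receptor, which LSECs and macrophages carry. The hairpins of miR-23a and miR-27a stand within 1 cluster with a miR-24 hairpin on chromosome 19, and those of miR-23b and miR-27b in another, with the other miR-24 hairpin, within Aopep on chromosome 17.

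The markers of the label were all bright on the LSEC arrays. miR-126a-3p had signals of 43584 and 44736 and ranked first on both. Its partner arm, miR-126a-5p, read 5781 and 5879.6, ranks 5 and 4. For miR-511-3p, the signals were 637 and 633, ranks 63 and 66. On the hepatocyte arrays the same spots read 19.3 and 52.1 for miR-126a-3p, 5.31 and 14.4 for miR-126a-5p, and 2.57 and 6.21 for miR-511-3p. On these spots the markers followed the labels. How many of all probes separate the groups in the same way was not counted, and summed signals were higher on the LSEC arrays. For miR-126a-5p and miR-511-3p the hepatocyte signals lay below the brightest negative controls of those arrays, at 11.7 and 22.1 units. With the deposited background column subtracted in place of the blank mean, miR-511-3p had no signal left, since that column read 124 and 106% of its spot.

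The brightest spots on the array pair formed a steep hierarchy. By itself miR-126a-3p held 20.5 and 20.1% of the summed signal (20.3% ± 0.29, SD, n = 2), and it was the 1 miRNA above 10000 units. Below it, 47 miRNAs with a mean signal from 1000 to 10000 units held 60.1% of the sum, and 94 miRNAs from 100 to 1000 units held 14.9%. The 284 miRNAs between 10 and 100 units held 4.07%, and the 332 between 0 and 10 units held 0.680%. Another 3 miRNAs averaged below the blanks. The 10 brightest miRNAs together held 44.1 and 42.3% (43.2% ± 1.2), the 25 brightest 63.4% ± 0.38 and the 100 brightest 92.4%. Reaching 50% took 14 and 15 miRNAs on the LSEC arrays, and reaching 90% took 81 and 80. On the hepatocyte arrays, whose brightest miRNA was miR-122-5p, 50% took 9 and 8 miRNAs, and 90% took 86 on each.

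**Figure D1:**
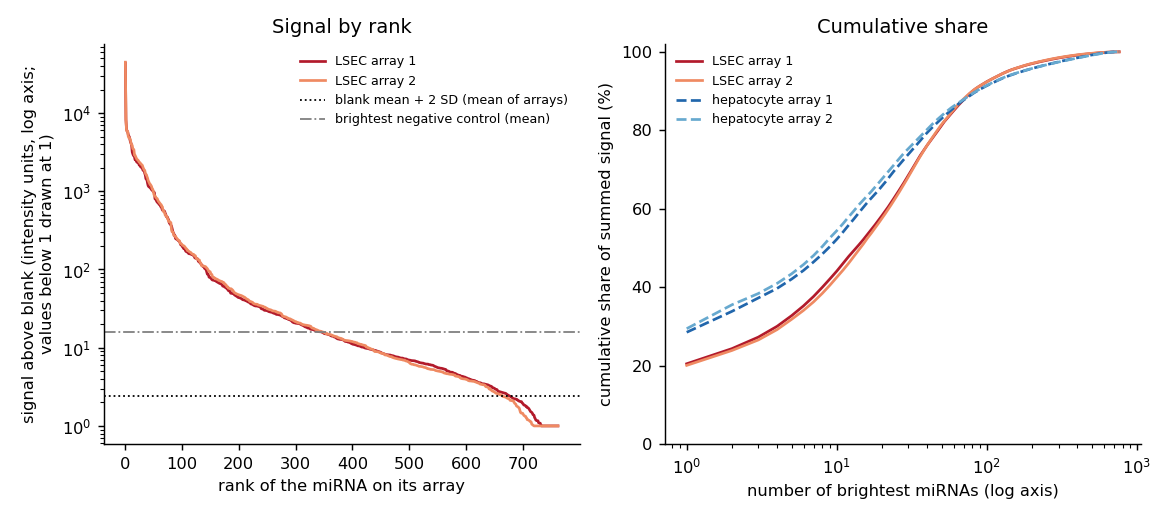
Left, signal above blank (intensity units, log axis) against rank for every miRNA of each LSEC array (values below 1 drawn at 1), with the detection limit and the brightest negative control as horizontal lines (means of the LSEC arrays). Right, the cumulative share of the summed signal (%) against the number of brightest miRNAs (log axis) on all 4 arrays. The LSEC curves start at 20.5 and 20.1% with miR-126a-3p and pass 50% at 14 and 15 miRNAs.

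How many miRNAs count as present depended on the limit. At the mean of the blank spots plus 2 SD, 680 and 660 miRNAs were detected on the LSEC arrays, 630 of them on both, 80 on 1 and 51 on neither. That limit lay 2.31 and 2.48 units above the blanks. Of the 32 negative control spots, 24 and 22 exceeded it, and so did 31.2 and 35.5% of the 513 spots without a probe. Above the brightest negative control, at 16.1 and 15.8 units, stood 330 miRNAs on both arrays, 27 on 1 and 404 on neither. These 330 miRNAs held 98.7 and 98.8% of the summed signal. With the deposited background column subtracted in place of the blank mean, 345 passed the 2 SD limit on both arrays. Ordered by signal over the limit, averaged over the 2 arrays, the miRNAs closest above it were miR-203a-5p (3.48 and 1.33 units), miR-101b-5p (3.86 and 0.99) and miR-379-5p (2.26 and 2.62). Closest below it by that mean were miR-190b-5p (2.62 and 2.10), miR-133a-5p (2.95 and 1.76) and miR-369-3p (2.48 and 2.23). Each of these 6 exceeded the limit on 1 array and missed it on the other. Values in this range lie below most negative controls. Below, "clear signal" is therefore used for a miRNA above the brightest negative control on both LSEC arrays. Of all rat probes, 685 matched by name and 76 not, 330 met this. Counts with clear signal in the clusters and lists below are to be read against that.

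After miR-126a-3p came miRNAs that most cell types use. In second place stood miR-21-5p, which represses Pdcd4, at 8203 and 8454 units (3.82% ± 0.044). Level in mean rank with miR-126a-5p was miR-16-5p, which restrains cyclins and Bcl2, at 5863 and 5851 units (2.69% ± 0.092). miR-126a-5p held 2.68% ± 0.056, and then followed let-7a-5p with 4962 and 5993 units (2.51% ± 0.25) and let-7f-5p with 5319 and 4840.4 units (2.34% ± 0.23). The spread between the arrays exceeded the gaps between most of these neighbours, so their order below miR-21-5p is not settled. The seventh, miR-26a-5p, was the least stable of the leading spots: it read 6251 units on array 1, rank 3, and 4034 on array 2, rank 11.

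Next in order were miR-23a-3p (4591 and 5064 units), miR-23b-3p (5097 and 4695), let-7d-5p (4113 and 4814), let-7c-5p (4228 and 4505) and miR-24-3p (3840.0 and 3948). Of the miR-23, miR-27 and miR-24 clusters, miR-23 and miR-27 are known in endothelium for promoting vessel growth through repression of Sprouty2 and Sema6A. Next came miR-29a-3p (3007 and 3867 units), of a family that represses collagens, and let-7b-5p (3179.9 and 3467). The 15th to 25th places were taken by miR-494-3p, miR-30c-5p, miR-347, miR-375-5p, miR-27a-3p, miR-30a-5p, miR-29b-3p, miR-30b-5p, miR-30d-5p, miR-99a-5p and miR-762. All 11 lay between 2184 and 3501 units on both arrays, where neighbours overlap within their spread. The 25 brightest miRNAs of array 1 and of array 2 were the same 25, and 9 of the 10 brightest were shared.

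**Figure D2:**
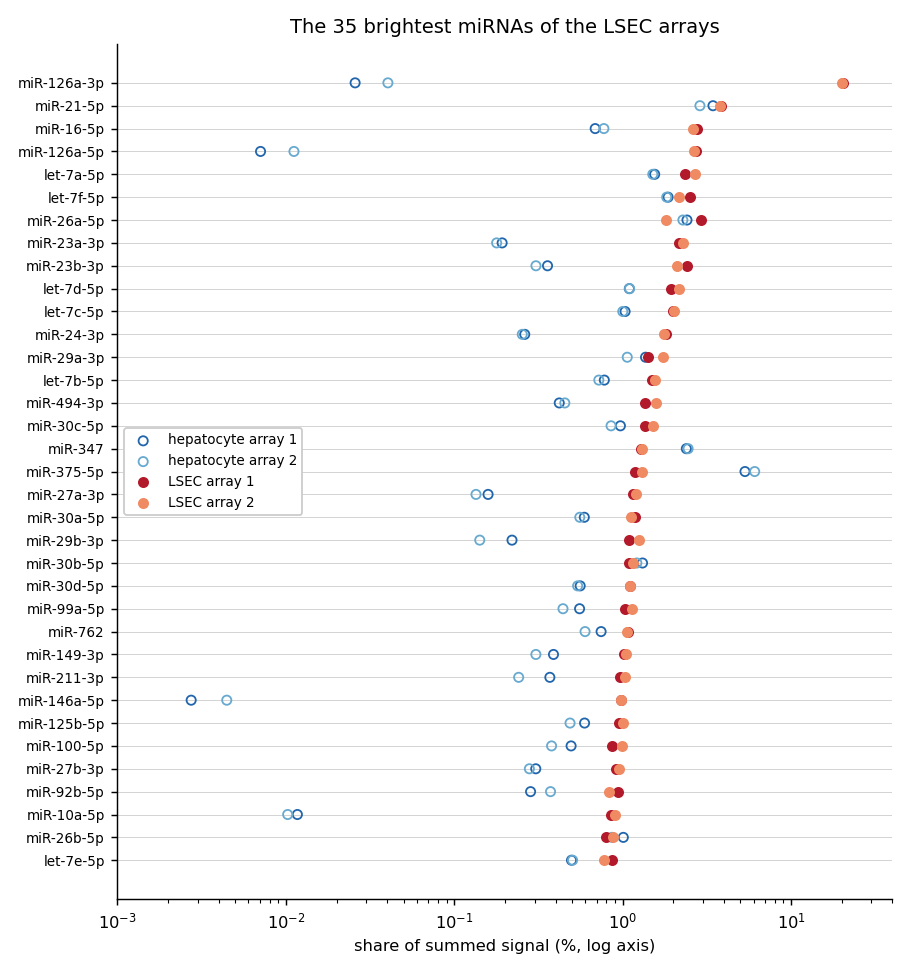
Share of the summed signal (%, log axis) of the 35 brightest miRNAs of the LSEC arrays, 1 row each, ordered by mean rank; filled points are the 2 LSEC arrays and open points the 2 hepatocyte arrays. The LSEC points of a row lie close together, widest for miR-26a-5p (2.94 and 1.81%), while miR-126a-3p, miR-126a-5p, miR-146a-5p and miR-10a-5p have open points far to the left.

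Set beside the hepatocyte arrays, where the same probe gives the comparison, the bright LSEC miRNAs ranged from bright on both to near background in hepatocytes, with others between: miR-23a-3p read 144 and 230.3 units there, miR-24-3p 197 and 327. Of the 25 brightest in LSECs, 11 (44%) were among the 25 brightest in hepatocytes, and of the 50 brightest 32 (64%) were. miR-21-5p ranked 3 on both hepatocyte arrays, let-7f-5p 10 on both, and miR-26a-5p 4 and 8. Among the 50 brightest, the 10 miRNAs with the greatest gap from LSEC rank to hepatocyte rank were miR-146a-5p, miR-150-5p, miR-126a-5p, miR-10a-5p, miR-126a-3p, miR-125a-5p, miR-130a-3p, miR-23a-3p, miR-27a-3p and let-7i-5p. The first 4 lay below the brightest negative controls on both hepatocyte arrays, so their hepatocyte ranks, and the order of their gaps, carry no information. miR-146a-5p, which NF-kB induces and which represses Irak1 and Traf6, read 2088 and 2182 units in LSECs and 2.05 and 5.75 in hepatocytes. miR-10a-5p, a Hox cluster miRNA that restrains NF-kB signalling in endothelium, read 1825 and 2015 units against 8.78 and 13.2. With the deposited background column subtracted miR-10a-5p had no LSEC signal left, since that column read 141 and 124% of its spot. For miR-150-5p the column read 77.0 and 103% of the spot, which left no signal on LSEC array 2. Ranks between cell types are given as a description, and no test was made on them.

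Summing the arms, the miR-126a hairpin held 23.2 and 22.7% of the signal (23.0% ± 0.35), and its 3p arm supplied 88.3 and 88.4% of that. The next hairpins were those of miR-21 (3.84% ± 0.04), miR-16 (2.69% ± 0.09), let-7a (2.51%), miR-26a (2.38% ± 0.80) and let-7f (2.34%); the let-7a and let-7f values rest on the 5p probe. Of 281 hairpin names with both arms probed, 72 had clear signal from both arms, 100 from 1 arm and 109 from neither. Among the 172 with a clear arm, the brighter arm held a median of 91.2% of the hairpin's signal, and 92 had over 90% in 1 arm. The brighter arm was the same on both LSEC arrays for all but 6 of the 172, those of miR-125a, miR-362, miR-532, miR-361, miR-674 and miR-466c. miR-21-5p held 99.6 and 99.7% of its hairpin, and miR-16-5p 99.9% on both arrays. Against these single-arm hairpins, miR-126a was a hairpin whose weaker arm was itself among the 5 brightest miRNAs.

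Grouped by seed, the 685 matched miRNAs fell into 580 seeds, 72 of them with at least 2 members. These 685 held 91.4 and 91.0% of the summed signal. miR-126a-3p was alone in its seed. The let-7 family, brakes on growth genes such as Hmga2 and Ras, came second with 9 members at 12.3 and 12.4% (12.4% ± 0.06), against 7.57 and 7.36% on the hepatocyte arrays. All 9 had clear signal, from let-7a-5p down to miR-98-5p at 272 and 304 units. No member dominated: the leading let-7a-5p supplied 20.3% of the family. Most let-7 members differ from let-7a-5p at 1 or 2 bases, counted from 1 at the 5′ end with the base of let-7a-5p first: G12A in let-7f-5p, A19G in let-7c-5p, U9G in let-7e-5p, U1A and U16C in let-7d-5p. How far the probes separate such sequences was not tested, so the family sum is firmer than the split among its members.

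The seed of miR-23 held 4.55 and 4.38%, split almost evenly between miR-23a-3p (49.6%) and miR-23b-3p, which differ at a single base (U19A). The seed of miR-16 held 4.28 and 4.06% over 5 members, led by miR-16-5p with 64.5%, ahead of miR-195-5p (1419 and 1538 units), miR-322-5p (979 and 746), miR-497-5p (714 and 769.9) and miR-15b-5p (141 and 139). miR-15a-5p (709 and 673 units) was not placed in a seed group. Within the miR-16 group, miR-16-5p and miR-195-5p differ by G10A and U11G over their shared length. Compared in the same way, miR-322-5p differs from miR-16-5p at 10 positions and miR-497-5p at 11. miR-29a-3p, miR-29b-3p and miR-29c-3p together held 3.00 and 3.53%, the miR-26 pair 3.73 and 2.68%, and the matched miR-30 members 3.07 and 3.20%. In the miR-30 group miR-384-5p was at -0.294 and 3.37 units, and miR-30c-5p led with 2878 and 3392. miR-30b-5p (2332 and 2578 units) and miR-30d-5p (2364 and 2449) matched no sequence by name and so were not placed in a seed group. The miR-30 share leaves them out, and the order of the seed groups holds for matched names alone. Together the 8 largest seed groups of matched names, with 27 miRNAs, held 55.3 and 54.1% of the LSEC signal.

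**Figure D3:**
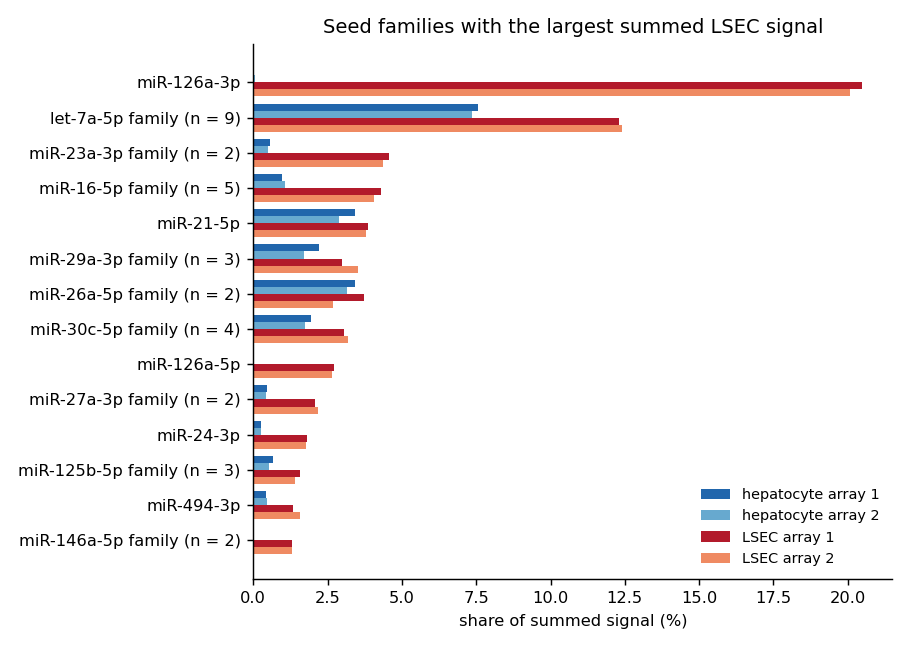
Share of the summed signal (%) of the 14 seed groups with the largest LSEC sums, 1 bar per array, named by the brightest member with the number of matched members (n). Unmatched miRNAs such as miR-30b-5p and miR-30d-5p are not in the bars. The miR-126a-3p bars reach 20.5 and 20.1% on the LSEC arrays, the let-7 bars 12.3 and 12.4% there and 7.57 and 7.36% on the hepatocyte arrays.

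Some bright miRNAs lie together in genomic clusters, which can mix seeds, though a mature miRNA made from several loci cannot be assigned to one. Members of the miR-23a, miR-27a and miR-24-2 cluster summed to 5.24% of the signal and those of the miR-23b, miR-27b and miR-24-1 cluster to 5.02%, with miR-24-3p counted in both. The X-linked cluster of miR-322, miR-503, miR-351, miR-542 and miR-450 held 1.12 and 0.88%, with clear signal for 10 of its 12 probes, led by miR-322-5p, the rat counterpart of human miR-424, and miR-450a-5p (466 and 409 units). The large imprinted cluster on chromosome 6 (Dlk1-Dio3) had clear signal for 11 of 59 probes in its main stretch and 1.94 and 2.18% of the sum, of which miR-494-3p (1.35 and 1.57%) was the greater part.

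Base composition went with brightness over the whole array. Across the 685 matched miRNAs, the GC content of the mature sequence and the signal had Spearman correlations of 0.37 and 0.34 on the LSEC arrays, and 0.36 on each hepatocyte array. All these miRNAs share the arrays, and the coefficients are a description. The median signal was 3.17 and 3.91 units for 59 miRNAs with under 35% GC, 11.7 units on both arrays for 278 with 45 to 55%, and 54.4 and 58.6 units for 56 with 65% or more. Clear signal was found for 27.1%, 38.5% and 91.1% of these groups. Among the 30 brightest were 4 such GC-rich miRNAs, shown for their composition, in which the capitals again mark the seed.
rno-miR-375-5p: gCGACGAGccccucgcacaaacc
rno-miR-762: gCGGGGCUagggccggga
rno-miR-149-3p: gGGACGGGggcggugcug
rno-miR-211-3p: gGCAAGGAcagcaaaggggg
Their GC contents are 69.6, 83.3, 83.3 and 65%. miR-375-5p read 2526 and 2889.9 units in LSECs and 3994 and 7847 in hepatocytes, where it ranked 2. The opposite arm, miR-375-3p, a known miRNA of pancreatic islets, read 5.85 and 5.87 units in LSECs. The part of base composition in the ranks of these miRNAs was not tested. The 56 miRNAs with 65% GC or more held 8.09 and 8.51% of the signal, against 44.2 and 43.5% for those with 45 to 55%.

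The first base, which Argonaute proteins hold in a pocket that favours U, was also uneven. Of the matched miRNAs, 247 (36.1%) start with U, and they held 67.7 and 66.9% of the matched signal. Without miR-126a-3p, which starts with U, the share was 58.3 and 57.5%. Those starting with A were 29.6% of the miRNAs and held 15.1 and 15.3% of the signal, those with C 21.6% and 9.55 and 9.64%, and those with G 12.7% and 7.69 and 8.17%. Named by arm, 309 5p probes held 48.7 and 48.0% of the signal and 315 3p probes held 44.7 and 45.4%. Without miR-126a-3p in the sum, the mean shares were 60.7% for the 5p and 31.1% for the 3p probes.

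Lists of miRNAs known from particular cell types were then summed. They were chosen with earlier results of these data known, and the endothelial list holds the miR-126a markers, so group contrasts are a description. In a bulk sample, fewer cells of a type and less RNA per cell cannot be told apart. The endothelial list held 35.2 and 34.6% of the LSEC signal, against 2.58 and 2.28% on the hepatocyte arrays. Clear signal was found for 15 of its 19 members, against 330 of all 685 matched and 76 unmatched probes. miR-126a-3p supplied 58.1% of the list's LSEC signal, followed by miR-126a-5p, miR-23a-3p, miR-23b-3p and miR-24-3p. Further members were miR-125b-5p (2036 and 2228 units), miR-100-5p (1852 and 2205), miR-10b-5p (571 and 547) and miR-322-5p. Other members often tied to endothelium were dim: miR-221-3p read 149.8 and 149.7 units, miR-222-3p 15.7 and 19.5, miR-218a-5p 11.7 and 11.9, miR-181b-5p 14.4 and 15.0, and miR-132-3p 16.3 and 7.70. The list thus ran from rank 1 to below the brightest negative control. In the Mrc1 intron, miR-511-3p was bright while miR-511-5p read 9.25 and 13.3 units.

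Signal from hepatocyte miRNAs was small. The 14 probed members of that list held 0.708 and 0.735% of the LSEC signal (0.721% ± 0.019), against 38.4 and 39.8% on the hepatocyte arrays. Of the LSEC value 49.7% came from miR-22-3p (743 and 822 units), a miRNA that many cell types express. miR-122-5p, the dominant hepatocyte miRNA, read 109 and 77.9 units in LSECs, ranks 139 and 158, against 21379.5 and 37971 units at rank 1. By share, its mean LSEC value was 0.043%, against 28.5 and 29.4% on the hepatocyte arrays, or 0.148% of their mean share. In unscaled signal the LSEC mean was 0.436 and 0.246% of hepatocyte arrays 1 and 2, whose summed signals were lower than those of the LSEC arrays. miR-122-3p read 12.8 and 12.2 units, below the brightest negative control, and miR-802-5p, at 1.18 and 2.31 units, was not detected on either LSEC array. miR-203b-3p (0.844 and 0.765 units) was not detected either. miR-192-5p (16.2 and 23.4 units) and miR-194-5p (19.5 and 19.3) stood just above the negative controls, at 0.514 and 0.395% of their mean hepatocyte shares. miR-148a-3p (39.7 and 48.5 units) and miR-101b-3p (46.7 and 65.8) stood higher, at 2.46 and 2.98%. The percentages thus differed between hepatocyte miRNAs, and whether carried-over hepatocyte RNA takes part in them was not tested. In unscaled signal miR-101a-3p was brighter in LSECs, at 294 and 323 units against 86.6 and 141 on the hepatocyte arrays. miR-365-3p was dimmer there, at 183 and 202 units against 190 and 298. miR-194-3p, at 31.2 and 30.4 units, lay between the hepatocyte arrays (23.5 and 59.6). These comparisons are not scaled for the higher summed signals of the LSEC arrays.

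Blood and immune cell miRNAs ranged from bright to not detected. The macrophage and myeloid list held 5.37 and 5.44% of the signal, of which miR-21-5p, which many cell types express, supplied 70.8%. After it came miR-146a-5p and miR-146b-5p (674 and 711 units). Of the more cell-restricted members, miR-142-5p read 203 and 402 units, miR-142-3p 138 and 258, and miR-223-3p, a miRNA of neutrophils and monocytes, 86.6 and 79.9. miR-223-5p read 2.75 and 3.33 units, miR-147 8.94 and 8.47, and miR-155-5p, induced in activated immune cells, 15.5 and 22.7. Lymphocyte miRNAs held 0.689 and 0.791%, led by miR-150-5p, which represses Myb, at 1078 and 1329 units, with miR-181a-5p at 234 and 237 units and miR-342-3p at 71.9 and 94.1. Erythroid miRNAs were dim: miR-486 read 53.2 and 68.0 units, miR-451-5p 23.5 and 17.7, miR-451-3p 3.41 and 2.35, miR-144-3p 2.83 and 2.44, and miR-144-5p 2.04 and 0.245. Of the 5 erythroid probes 2 had clear signal, a count that does not set the list apart from all probes. The list held 0.040 and 0.041%.

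miRNAs of stellate and other mesenchymal cells held 0.888 and 0.745%, and 7 of 10 had clear signal. miR-199a-3p, from within Dnm3, read 574 and 548 units, miR-199a-5p 271 and 274, and miR-214-3p 155 and 182, while miR-214-5p (2.14 and 1.04) was not detected on either array. miR-143-3p, from the Carmn locus of smooth muscle and perivascular cells, read 368 and 233 units, and its neighbour miR-145-5p read 245 and 156. Cholangiocyte and epithelial miRNAs, among them the miR-200 family that represses Zeb1 and Zeb2, held 0.0489 and 0.0514%, and 1 of 15, miR-203a-3p (22.5 and 19.7 units), had clear signal. The other 14 lay between -0.439 and 12.4 units. For muscle and neural miRNAs, taken as a set foreign to liver, 3 of 20 had clear signal: miR-133b-3p (34.0 and 45.6 units), miR-128-3p (33.6 and 34.8) and miR-133a-3p (20.1 and 25.2). miR-137-3p, miR-206-5p and miR-208b-3p of that set were detected on neither array. The 20 foreign probes summed to 172 and 192 units, the 15 epithelial to 104 and 115 and the 5 erythroid to 85.0 and 90.7. The 5 lymphocyte probes summed to 1467 and 1763 units and the 10 mesenchymal to 1889 and 1662. These lists differ in size, so the sums do not rank them per probe. The erythroid miR-486 alone (53.2 and 68.0 units) was brighter than every foreign member.

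**Figure D4:**
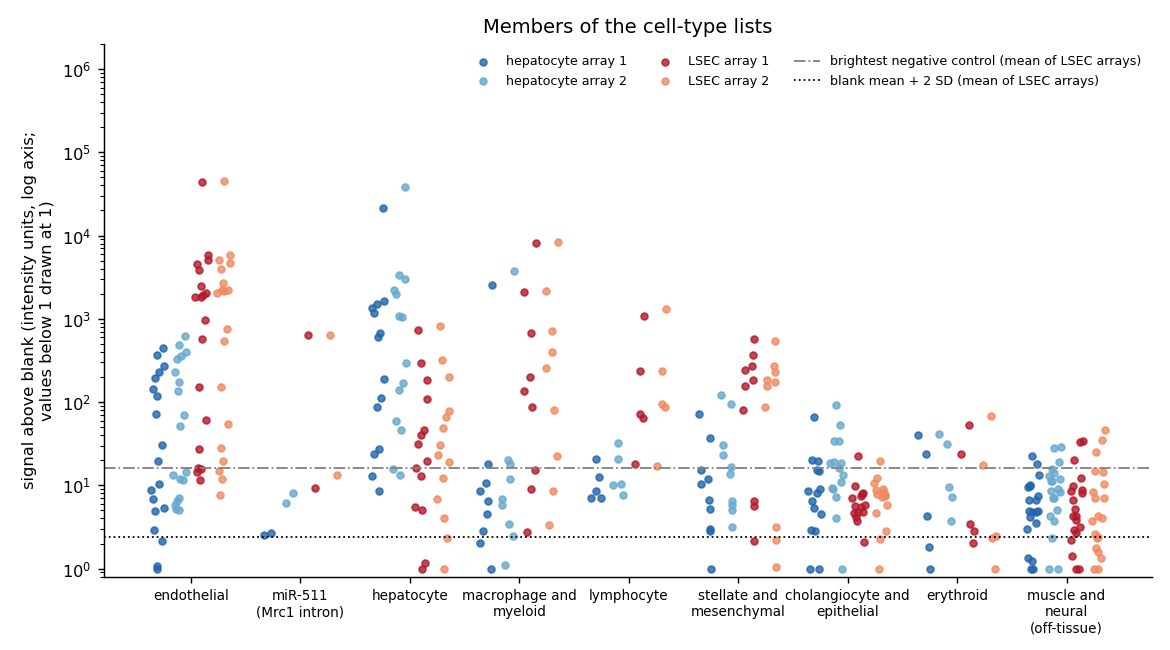
Signal above blank (intensity units, log axis) of every member of the cell-type lists on the 4 arrays, 1 point per miRNA and array (values below 1 drawn at 1), with the detection limit and the brightest negative control of the LSEC arrays as horizontal lines. LSEC points of the endothelial list reach 43584 and 44736 units, while those of the epithelial list lie at or below 22.5 units.

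The arrays of the LSEC pair differed little. Over the 630 miRNAs detected on both, log2 signals had r = 0.990 across miRNAs, which are not independent replicates. The ratio of shares, array 2 over array 1, had a median absolute log2 value of 0.19, a factor of 1.14. It was 0.33 for 204 miRNAs under 10 units, 0.19 for 169 from 10 to 30 units, 0.14 for 115 from 30 to 100, 0.14 for 94 from 100 to 1000 and 0.078 for 48 above 1000. Control spots printed repeatedly on 1 array varied by 4.41 and 8.54% (median coefficient of variation over 5 control names with signals above 100 units). That is a spread within an array among bright spots, so it is no measure for the ratios between arrays or for dim miRNAs.

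Among the 315 brighter of these miRNAs, 13 differed by more than 1.5-fold, 4 of them higher on array 2 and 9 higher on array 1. Both arms of the haematopoietic miR-142 were higher on array 2, miR-142-5p by 1.89-fold (log2 0.92) and miR-142-3p by 1.79-fold (log2 0.84). The arms come from 1 hairpin, but they are different sequences read by different probes.
rno-miR-142-5p: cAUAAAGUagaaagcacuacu
rno-miR-142-3p: uGUAGUGUuuccuacuuuaugga
Higher on array 1 were both perivascular miRNAs, miR-143-3p (log2 -0.73) and miR-145-5p (log2 -0.72), along with miR-322-3p (log2 -1.01) and miR-25-3p (log2 -0.73). The other arm of the miR-143 hairpin, miR-143-5p, did not go with them, at 79.4 and 87.2 units (ratio of shares 1.05). miR-335, from an intron of the imprinted gene Mest, differed most in that direction, with 665 against 271 units (log2 -1.36). In the other direction the largest was miR-127-3p, of the Dlk1-Dio3 cluster, with 25.9 against 75.9 units (log2 1.49), followed after miR-142 by miR-3572 (log2 0.62) and miR-296-5p (793 and 1151). With 1 spot per miRNA and 2 samples, whether these differences lie between samples or arrays was not tested. Of the other myeloid miRNAs, miR-155-5p had a ratio of shares of 1.40 at 15.5 and 22.7 units, but lay below the brightest negative control on array 1. The ratio was 0.880 for miR-223-3p, 0.998 for miR-146a-5p and 1.01 for miR-146b-5p. Of the mesenchymal list, miR-199a-3p had 0.912 and miR-214-3p 1.12.

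**Figure D5:**
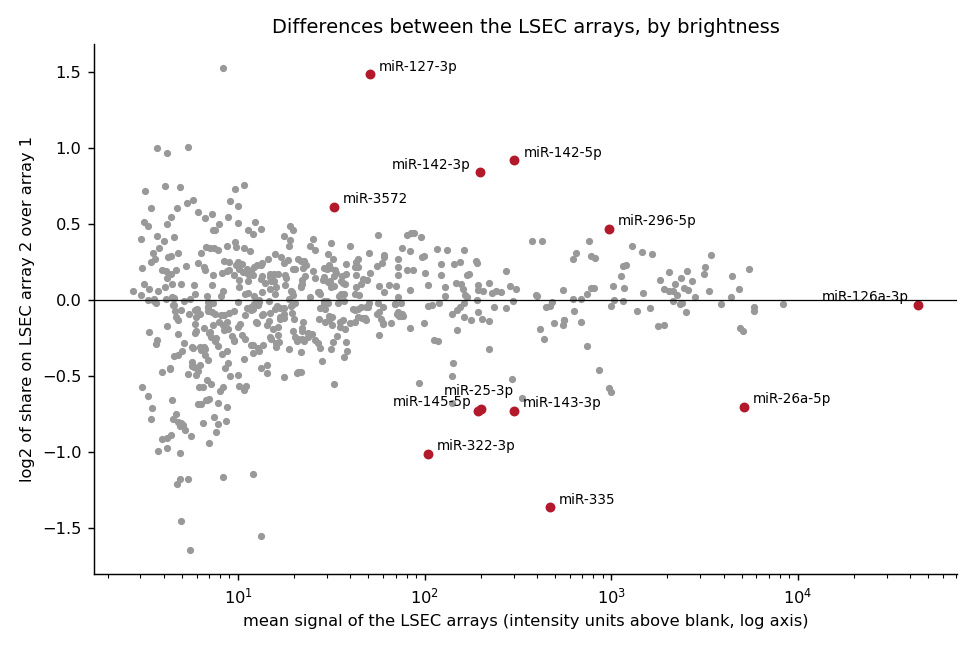
Log2 of the share on LSEC array 2 over array 1 against the mean LSEC signal (intensity units above blank, log axis) for the 630 miRNAs detected on both arrays, 1 point each; red points are named. The cloud narrows as signal rises, and miR-127-3p, both arms of miR-142, miR-335 and miR-322-3p lie far from 0 for their brightness.

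The leading place of miR-126a-3p held under every background treatment run, but its share and the order behind it did not. Subtracting the deposited background column gave it 31.4% of the signal and kept 3 of the 10 brightest miRNAs (miR-126a-3p, miR-16-5p and miR-21-5p) among the first 10. That column rose with the spot itself (r = 0.973 and 0.964 on the log2 scale across miRNA probes). For miR-26a-5p it read 5109.6 and 4619.9 units, 80.8 and 113% of the spot, whereas beside blank spots its median was 66.3 and 64.2 units. Of the 50 brightest miRNAs, 2 had a background at or above the spot on both LSEC arrays, miR-10a-5p and let-7i-5p.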

How the data were processed

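RNA was labelled with Cy5 from a 3D-Gene kit (Toray), per the labels' protocols. Each scanner table gives spot and background medians as linear intensity, merged by least squares from scans at 3 gains, per the file headers. Another deposited table holds the authors' processed intensity values, in a scale that is not spelled out; on the LSEC arrays it equalled the blank-subtracted signal times 1.55 and 1.41.

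Signal was the spot median minus the mean of the 1664 blank spots after leaving out 5% at each end, and negative signals counted as 0 in sums. The detection limit was that mean plus 2 SD. Blank means were 70.9 and 71.8 for LSECs and 79.5 and 92.1 for hepatocytes, and summed signals were 212814 and 222904 against 74992 and 129023 units. The number of arrays limits the precision. No test was made, since the values describe 1 group.

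Members, 9 cell-type lists (miR-193-3p of the hepatocyte list matched no probe name) and the naming rule were chosen with earlier results of these data known. The rule took the 25 brightest miRNAs, the markers, and the 5 brightest and the undetected members of each list. It also took members of the 6 brightest hairpins and 8 largest seed groups. Further, it took the 5 per direction that differed most between LSEC arrays among the brighter of those detected on both. Last came the 3 nearest each side of the detection limit, and the 10 with the greatest rank gap to hepatocytes among the 50 brightest. Some miRNAs taken by the rule are not printed above. Others were named after their values were seen. Hairpins within 10000 bp on 1 strand formed a cluster. Python 3.11.15, pandas 2.3.3, R 4.3.3 and limma 3.58.1 (normexp) were used, and the scripts were tested on simulated data. Alternatives changed the background, the source of values, the detection limit, the probes summed, the seed, the scaling and the arrays used.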

Additional observations from a re-analysis of the deposited data

Results flagged for a closer look

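Spots named S-Probe, whose targets the files do not describe, were not part of the miRNA measurement, yet 4 of these names exceeded 1000 units on both LSEC arrays, against 16.1 and 15.8 units for the brightest negative control. S-Probe1014 averaged 8905 units on the LSEC arrays (8306 and 9505), with 1621 and 2731 on the hepatocyte arrays. S-Probe28 averaged 7193 units (6962 and 7423), with 10339 and 17798 in hepatocytes. S-Probe1018 averaged 1608 units (1420.4 and 1796), and S-Probe26 averaged 1085 units (1067 and 1103). Groups of 2 arrays were not tested for outlying samples.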

How the results depend on the processing

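Of 61 values recomputed under alternatives, 16 moved by more than 1 SD between the arrays or, for the number detected and the spread, by more than 1.5 times. The other 45 stayed within that, but some of them could not move by this rule. The 5 SD limit does not enter the shares, and the authors' values were a multiple of the signal on each LSEC array. Leaving out 1 of the 2 arrays moves a share of fixed members by less than 1 SD. Normexp with an offset of 50, which adds a constant to every spot, gave the 10 brightest miRNAs 36.5% of the signal, the miR-126a hairpin 19.3%, miR-126a-3p as the largest seed group 17.1%, the hepatocyte list 0.899% and a median spread of 0.065. Subtracting the deposited background column gave 49.7, 32.6, 31.4 and 0.798%, a spread of 0.51 and 345 miRNAs detected. With miR-126a-3p left out of the sum, an alternative added after seeing the data, the values were 31.3% for the 10 brightest, 4.81% for miR-21 as the brightest hairpin, 15.5% for let-7 as the largest seed group and 0.905% for the hepatocyte list. A limit at the brightest negative control, also added later, gave 330 detected miRNAs. Without either array, detected miRNAs ranged from 660 to 680 and the share of the 10 brightest from 42.5 to 44.1%. A limit at 5 SD gave 492 detected miRNAs and a spread of 0.164, and the brightest negative control as limit gave a spread of 0.141. The blank median, the authors' values, detected miRNAs alone, probes of single miRNAs, seeds of bases 2 to 7 and other scalings stayed within those bounds. No paired analysis was possible because the results come from no test. Most miRNAs under 16 units cannot be told from negative controls, and 2 arrays, with origin in separate animals not stated, limit every spread given.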
